A study of Homo sapiens with 6 samples.

Results

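The fibrinogen chains and the main acute-phase proteins of the liver were followed in a hepatocellular carcinoma cell line after knockdown of diacylglycerol lipase alpha (DAGLA). The members were 10 genes chosen by name as IL6-responsive liver genes, namely the fibrinogen chain genes FGA, FGB and FGG, the fibrinogen-like gene FGL1, and CRP, SAA1, HP, ORM1, ORM2 and SERPINA1. They were matched by Ensembl identifier among the 29908 genes of the deposited table, and 7 of the 10 passed the filter on low values (an average over all libraries of 0.5 FPKM or more), which left 14221 genes to test. FPKM counts the reads of a gene scaled to the length of its exons and to the size of the library.

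RNA sequencing was carried out on 6 libraries of Hep3B, a human hepatocellular carcinoma line, with 3 libraries each for the Hep3B-Con and Hep3B-KD groups. Both groups were infected with lentivirus and selected with puromycin. Hep3B-KD cells carried the hairpin shDAGLA against DAGLA, the enzyme that makes the endocannabinoid 2-arachidonoylglycerol, and Hep3B-Con cells carried the control construct, which the labels call shControl and the design text calls an empty vector. The comparison asks which transcripts differ when DAGLA is lowered. A single cell line and a single hairpin were used, with no rescue or second hairpin among the libraries, and no cytokine treatment is named for them. The replicates are described as biological, without saying how they were separated, and p-values measure the spread between these libraries only.

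The libraries held 15861039 to 17572714 reads. DAGLA itself was at 9.28 ± 0.228 FPKM (SD, n = 3) in Hep3B-Con and 4.62 ± 0.164 FPKM (n = 3) in Hep3B-KD, a log2 fold change of -0.99 ± 0.0441 (SE, limma adjusted p = 5.25e-06). All 8 hepatocyte markers examined were expressed, and ALB, the gene of serum albumin, reached 2042 ± 25.9 FPKM in Hep3B-Con. PTPRC, the defining leukocyte marker, stayed at 0.0276 ± 0.0134 FPKM in Hep3B-Con and 0.0112 ± 0.00386 FPKM in Hep3B-KD. Other leukocyte markers were detected. CD14 was at 1.08 ± 0.286 FPKM in Hep3B-Con and 0.862 ± 0.0863 FPKM in Hep3B-KD, and LYZ at 2.63 ± 0.536 and 3.51 ± 0.492 FPKM. The summed level of 5 stellate and fibroblast markers was 9.14 to 10.1 FPKM in Hep3B-Con and 5.38 to 5.91 FPKM in Hep3B-KD. Of the 5, LUM was highest, at 6.03 ± 0.364 and 3.29 ± 0.218 FPKM. PDGFRB was next, at 2.67 ± 0.0994 and 2.11 ± 0.0198 FPKM. COL3A1 and DCN had at most 2 reads in any library. The part of these markers in the results below was not tested.

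Acute-phase proteins are plasma proteins whose production by hepatocytes changes during inflammation. IL6 binds its receptor IL6R and the shared subunit gp130, encoded by IL6ST, and activates the transcription factor STAT3, while IL1 acts through NF-kB and C/EBP factors, and liver factors such as HNF4A keep hepatocyte genes active at rest. Fibrinogen is built from equal numbers of the Aα, Bβ and γ chains, which FGA, FGB and FGG encode from neighbouring genes, and is cut by thrombin to form the fibrin clot.

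The 3 fibrinogen genes lie together on chromosome 4. In the GENCODE 29 annotation of GRCh38 FGB occupies chr4:154562956-154571086 on the forward strand, FGA chr4:154583126-154590766 on the reverse strand and FGG chr4:154604134-154612967 on the reverse strand. The sequence before each start was searched on both strands, over 250 bases, for 3 short motifs of the factors above. These were the IL6 response element CTGGGAA, the STAT site TTCNNNGAA and the C/EBP core TTNNGCAA, present in 9.15%, 6.57% and 9.05% of 35116 RefSeq promoters of the same length. The sequences of the fibrinogen genes are shown because these 3 genes moved by different amounts. They come from RefSeq (GRCh38.p14), run 5′ to 3′ on the strand of the gene, and carry the motif matches in capitals. FGA is shown at chr4:154590767-154590992 and FGB at chr4:154562730-154562955, up to the first annotated exon base, and FGG as the 30 bases around its single match, at chr4:154612799-154612828.
FGA: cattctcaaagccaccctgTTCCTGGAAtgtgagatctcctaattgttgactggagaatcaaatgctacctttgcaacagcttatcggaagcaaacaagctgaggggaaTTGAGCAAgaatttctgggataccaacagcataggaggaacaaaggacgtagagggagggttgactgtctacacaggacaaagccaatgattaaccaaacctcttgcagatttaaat
FGB: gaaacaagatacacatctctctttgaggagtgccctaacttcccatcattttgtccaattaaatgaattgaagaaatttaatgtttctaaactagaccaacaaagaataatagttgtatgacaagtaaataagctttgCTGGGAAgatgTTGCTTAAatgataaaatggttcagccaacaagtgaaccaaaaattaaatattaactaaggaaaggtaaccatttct
FGG: gtgtgcaaaatCTGGGAAcctgacagtata

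Counted back from the RefSeq start, or the first of 2 for FGB, with the base before it as -1, FGA held a STAT site at -231 to -223 and a C/EBP core at -141 to -134. FGB held the IL6 response element at -112 to -106 and a C/EBP core on the opposite strand at -101 to -94, and from its second start the same matches lay at -143 to -137 and -132 to -125. FGG held only the IL6 response element, at -161 to -155, inside the first exon of the alternative transcripts FGG-203 and FGG-206. No match overlapped another. Of the other members, SERPINA1, ORM1 and CRP held none of these letters in this window. FGL1, SAA1, HP and ORM2 had no promoter in the table used. A match describes letters and is not a measured binding site.

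Among the 7 tested members, 6 were lower and 1 was higher in Hep3B-KD at an adjusted p under 0.05 in limma, and 2, FGA and ORM1, fell by at least 2-fold. Of all genes tested, 59.9% passed the same threshold, with 36.1% higher and 23.8% lower, and 8.83% passed it with a fold of at least 2, with 5.89% higher and 2.94% lower. The same 6 members lay wholly below their Hep3B-Con values in every Hep3B-KD library and the seventh wholly above, while 26.3% of all genes tested lay wholly below and 40.7% wholly above. The median log2 fold change of the 7 was -0.75, and that of all genes tested was 0.11. All fold changes are of FPKM + 0.1 on the log2 scale, Hep3B-KD against Hep3B-Con, and depend on the scaling by library size. In bulk RNA, fewer cells that express a gene and less RNA of that gene per cell cannot be told apart.

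**Figure D1:**
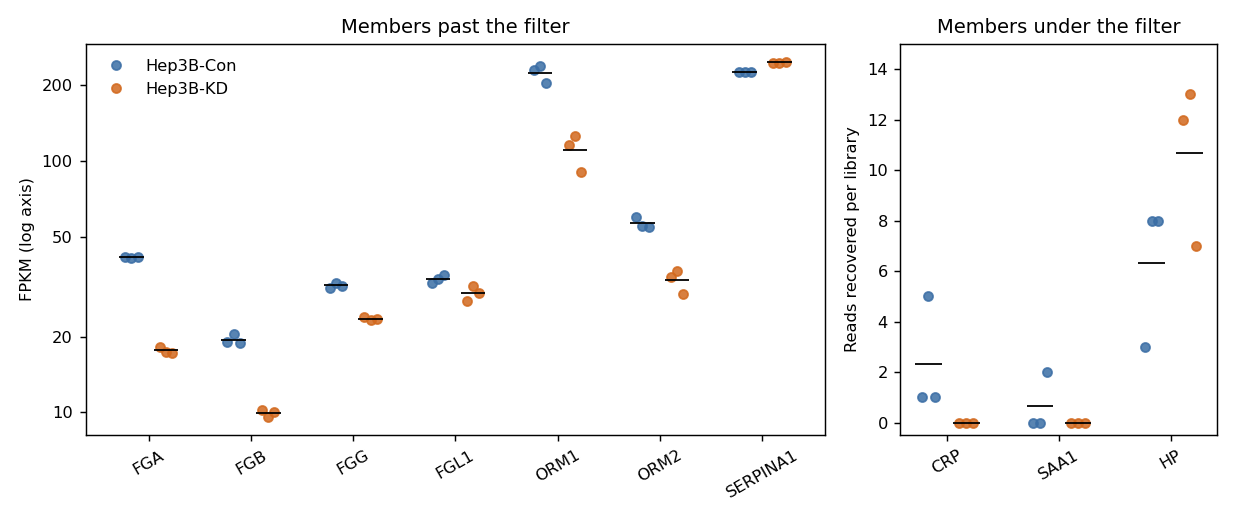
Level of the 10 members in each library, with blue points for the 3 Hep3B-Con libraries, orange points for the 3 Hep3B-KD libraries and black lines for group means. The left panel gives FPKM on a log axis for the 7 members past the filter, of which 6 lie lower in every Hep3B-KD library and SERPINA1 lies slightly higher, and the right panel gives reads per library for CRP, SAA1 and HP, none above 13.

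FGA, the chain that carries fibrinopeptide A, fell most among the members. Its level was 41.5, 41.4 and 41.4 FPKM in the Hep3B-Con libraries and 18.2, 17.5 and 17.3 FPKM in the Hep3B-KD libraries. The groups were far apart and the spread within each was small, although 3 libraries measure a spread poorly. The mean went from 41.4 ± 0.0492 to 17.7 ± 0.506 FPKM (SD, n = 3 each), a level 57.3% lower, and the log2 fold change was -1.23 ± 0.0275 (SE, limma adjusted p = 3.94e-07). These values rest on 2726 to 2882 reads per Hep3B-Con library and 1110 to 1144 per Hep3B-KD library. Of all genes tested, 2.38% had a log2 fold change at or below that of FGA.

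FGB, whose chain has been held in hepatocyte studies to limit assembly of the hexamer, stood at 19.1, 20.4 and 18.9 FPKM in Hep3B-Con and at 10.2, 9.57 and 10.1 FPKM in Hep3B-KD. It was the lowest of the 3 chains in every library. Its mean fell by 48.9%, from 19.5 ± 0.825 to 9.96 ± 0.351 FPKM (n = 3 each), and the log2 fold change was -0.96 ± 0.0437 (SE, limma adjusted p = 5.73e-06), just under the 2-fold line. FGG, which encodes the γ chain with its platelet-binding end, stood at 31.3, 32.8 and 32.0 FPKM in Hep3B-Con and at 23.9, 23.3 and 23.6 FPKM in Hep3B-KD. All Hep3B-KD values were lower, by a smaller step than for FGA and FGB. The log2 fold change of FGG was -0.44 ± 0.0271 (SE, limma adjusted p = 1.94e-05), a mean 26.3% lower, and 13.8% of all genes tested were at or below it.

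FGG was also the single member with a seed match of shDAGLA in its 3′ UTR. A hairpin guide can lower other mRNAs through bases 2 to 8, as a microRNA does. If the guide is the complement of the listed target, that match reads GCCTTCA, and it occurred 1 time in the 258 bases of the FGG 3′ UTR and in 14.6% of the 11189 tested genes with an annotated 3′ UTR. FGA and FGB, which fell further, held none. The search took the longest annotated 3′ UTR of each gene, which need not be the expressed one. Matches also lay in genes described below that rose, with 1 each in C3, IL6ST and NFKBIZ and 3 in the 18020 bases annotated for TF. Among genes that fell, 3 lay in AKNA, 2 in HNF4A and 1 each in CEBPA, LIF and PTPN11. The part of the seed in the fall of FGG was not tested.

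Because the chains fell unequally, their balance shifted. FGG to FGB went from 1.64 ± 0.0412 in Hep3B-Con to 2.37 ± 0.0548 in Hep3B-KD (SD, n = 3 each), and FGA to FGG went from 1.29 ± 0.0333 to 0.748 ± 0.0160, so that FGA stood above FGG in every Hep3B-Con library and below it in every Hep3B-KD library. FGA to FGB went from 2.13 ± 0.0898 to 1.77 ± 0.0548. On the log2 scale the ratios differed by 0.53 (FGG to FGB), -0.79 (FGA to FGG) and -0.26 (FGA to FGB). No library of one group overlapped the other in any of the 3 ratios, and each gave p = 0.1 in a two-sided exact permutation test (0.1 adjusted over the 3 ratios), the smallest p that 3 against 3 can give. A ratio within a library does not depend on library scaling, although its level depends on the exon lengths behind FPKM. The chains were not independent measures of each other, since the ratios share members.

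**Figure D2:**
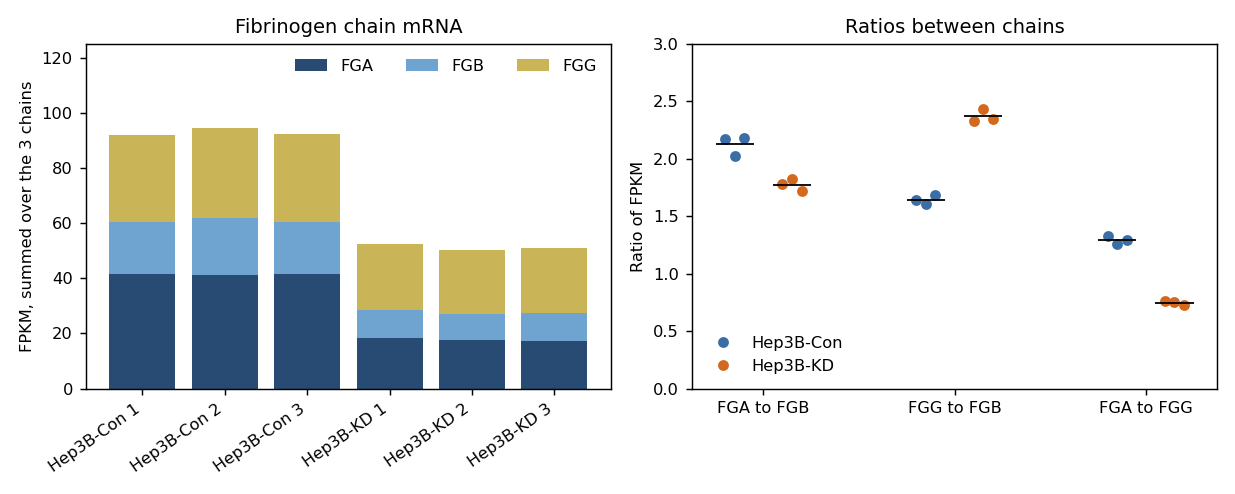
Left, stacked bars of FGA, FGB and FGG in FPKM for each of the 6 libraries, whose totals were 92.9 ± 1.51 FPKM in Hep3B-Con and 51.2 ± 1.05 FPKM in Hep3B-KD (SD, n = 3). Right, the FPKM ratio of each pair of chains, with 1 point per library and a line at each group mean, in which FGA to FGG passes from above 1 to below 1 and FGG to FGB moves up.

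Summed over the 3 chains, fibrinogen mRNA went from 92.9 ± 1.51 FPKM in Hep3B-Con to 51.2 ± 1.05 FPKM in Hep3B-KD. FGA made up 44.6% ± 0.764 of that sum in Hep3B-Con and 34.5% ± 0.502 in Hep3B-KD, FGG made up 34.5% ± 0.357 and 46.1% ± 0.402, and FGB made up 21.0% ± 0.561 and 19.4% ± 0.381. FGA was the most abundant of the 3 per length in Hep3B-Con, and FGG in Hep3B-KD. ALB was 22.0 ± 0.143 times the fibrinogen sum in Hep3B-Con and 64.7 ± 1.20 times in Hep3B-KD, a log2 difference of 1.56 (two-sided exact permutation p = 0.1). This ratio was chosen after the values had been seen.

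FGL1, a hepatocyte secreted protein with a fibrinogen domain that is not part of fibrinogen, lies on chromosome 8. It stood at 32.9, 33.8 and 35.4 FPKM in Hep3B-Con and at 27.8, 31.8 and 29.8 FPKM in Hep3B-KD. The highest Hep3B-KD value lay close under the lowest Hep3B-Con value. The mean fell by 12.5%, and the log2 fold change was -0.19 ± 0.0528 (SE, limma adjusted p = 0.0179). The call was lost after quantile normalization (-0.11, adjusted p = 0.102) and without Hep3B-Con replicate 3 (-0.16, adjusted p = 0.059).

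ORM1 and ORM2 encode the orosomucoids, or α1-acid glycoproteins, which bind basic drugs in plasma, and sit side by side on chromosome 9. ORM1 occupies chr9:114323056-114326475 and ORM2 chr9:114329869-114333252, both on the forward strand. ORM1 stood at 231, 240 and 204 FPKM in Hep3B-Con and at 116, 126 and 90.4 FPKM in Hep3B-KD. Its spread was the widest of the 7 tested members, yet the groups were well separated. The mean went from 225 ± 18.7 to 111 ± 18.3 FPKM (n = 3 each), and the log2 fold change was -1.03 ± 0.125 (SE, limma adjusted p = 0.000437). Without Hep3B-Con replicate 2 or Hep3B-KD replicate 3 the fall was under 2-fold, at -0.99 and -0.90, and after quantile normalization it was -0.86, and the adjusted p stayed under 0.05 in all 3.

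ORM2 stood at 59.9, 55.0 and 54.9 FPKM in Hep3B-Con and at 34.5, 36.6 and 29.7 FPKM in Hep3B-KD. Its Hep3B-KD libraries were all lower, and the library with the lowest ORM1 also had the lowest ORM2. The log2 fold change was -0.75 ± 0.0798 (SE, limma adjusted p = 0.000224), a mean 40.6% lower. ORM1 to ORM2 was 3.98 ± 0.338 in Hep3B-Con and 3.28 ± 0.204 in Hep3B-KD (two-sided exact permutation p = 0.1), a ratio chosen after the values had been seen. The split between both genes is uncertain, because 29.6% of the 100-base windows of ORM1 and 35.9% of those of ORM2 are identical in the other gene, and how such reads were assigned is not given in the sources used here. The sum of both was 282 ± 19.8 FPKM in Hep3B-Con and 144 ± 21.8 FPKM in Hep3B-KD.

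SERPINA1 encodes α1-antitrypsin, the main plasma inhibitor of neutrophil elastase, and was the best measured member, with 18392 to 20219 reads per library. It lies at chr14:94376747-94390693 on the reverse strand. It stood at 226, 226 and 225 FPKM in Hep3B-Con and at 247, 246 and 249 FPKM in Hep3B-KD. It was the single tested member with higher values in Hep3B-KD, by a small and even step. The log2 fold change was 0.13 ± 0.0128 (SE, limma adjusted p = 0.000162), close to the median of 0.11 over all genes tested, and after median centring it was 0.03 (adjusted p = 0.136). Its share of the summed FPKM of the 10 members was 35.6% ± 1.07 in Hep3B-Con and 52.4% ± 2.67 in Hep3B-KD.

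CRP, SAA1 and HP, classical plasma markers of inflammation, were at or near the limit of detection in both groups. CRP (C-reactive protein, chr1:159712289-159714589, reverse strand) had 1, 5 and 1 reads in the Hep3B-Con libraries and 0 in each Hep3B-KD library. SAA1 (serum amyloid A1, chr11:18266174-18269977, forward strand) had 0, 0 and 2 reads in the control libraries and 0 in each knockdown library. HP (haptoglobin, chr16:72054592-72061055, forward strand) had 3, 8 and 8 reads in the control libraries and 12, 13 and 7 in the knockdown libraries. A count of 0 allows up to 3 reads, which is 0.0897 to 0.0939 FPKM for CRP and 0.227 to 0.238 FPKM for SAA1 in the Hep3B-KD libraries, counting error only. No difference was detectable for these genes at this depth. When the filter was dropped, limma gave adjusted p = 0.147 for CRP, 0.468 for SAA1 and 0.385 for HP. HP overlaps TXNL4B in the annotation, and 28.5% of the 100-base windows of SAA1 are shared with SAA2. No gene of the name SAA2 was found in the deposited table.

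By level, SERPINA1 and ORM1 led in Hep3B-Con and their values overlapped, followed by ORM2, FGA, FGL1, FGG and FGB. An order between genes depends on the exon lengths behind FPKM, such as 4902 bases for SERPINA1 and 901 for ORM1. FGL1 and FGG were neighbours at 34.0 ± 1.26 and 32.0 ± 0.788 FPKM, and the lowest FGL1 value (32.89 FPKM) lay just above the highest FGG value (32.84 FPKM). In Hep3B-KD the order was SERPINA1, ORM1, ORM2, FGL1, FGG, FGA and FGB, and the values of ORM2 and FGL1 overlapped. The 10 members together took 0.180% ± 0.00184 of all reads in the control libraries and 0.162% ± 0.00141 in the knockdown libraries. The summed FPKM went from 635 ± 19.7 to 472 ± 20.9.

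Genes listed by name as other positive acute-phase genes, a class that rises in inflammation, mostly moved the other way from the fibrinogen and orosomucoid genes. Whether each listed gene, A2M included, rises in inflamed human liver cells was not tested here. Of 19 listed genes 7 could be tested, and 5 rose, 1 fell and 1 did not pass, with a median log2 fold change of 0.32. The smallest of these rises, of a gene outside the naming rule, was 0.15 (limma adjusted p = 0.049). Of all genes tested, 36.1% were higher and 23.8% lower. HPX, which encodes the haem carrier hemopexin, went from 7.86 ± 0.846 to 22.7 ± 1.02 FPKM, and the log2 fold change was 1.52 ± 0.0808 (SE, limma adjusted p = 1.04e-05). C3, the central complement protein, rose from 251 ± 2.45 to 313 ± 3.92 FPKM (log2 fold change 0.32). C4BPA, an inhibitor of complement, and A2M, a broad protease inhibitor, rose by 0.88 and 0.73 on the log2 scale. LRG1, a leucine-rich glycoprotein, fell by 0.15, from 24.3 ± 0.836 to 21.9 ± 0.359 FPKM. SERPINA3, LBP, HAMP and HPR were too low to test, each with at most 14 reads in any library.

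Negative acute-phase genes, whose products fall in plasma during inflammation, were tested for 10 of 12 genes, and 6 rose, 3 fell and 1 did not pass, with a median log2 fold change of 0.55. ALB rose from 2042 ± 25.9 to 3315 ± 6.90 FPKM, and the log2 fold change was 0.70 ± 0.0121 (SE, limma adjusted p = 1.45e-07). TTR, the thyroxine carrier transthyretin, and TF, the iron carrier transferrin, rose by 0.96 and 0.95 on the log2 scale. APOA2, an apolipoprotein of high-density lipoprotein, rose by 0.40. RBP4, the plasma retinol carrier, fell from 204 ± 0.776 to 107 ± 0.153 FPKM (log2 fold change -0.92, limma adjusted p = 9.11e-08), and AHSG, or fetuin-A, fell from 540 ± 6.15 to 410 ± 8.06 FPKM (log2 fold change -0.40). Both directions thus occurred in each acute-phase class.

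**Figure D3:**
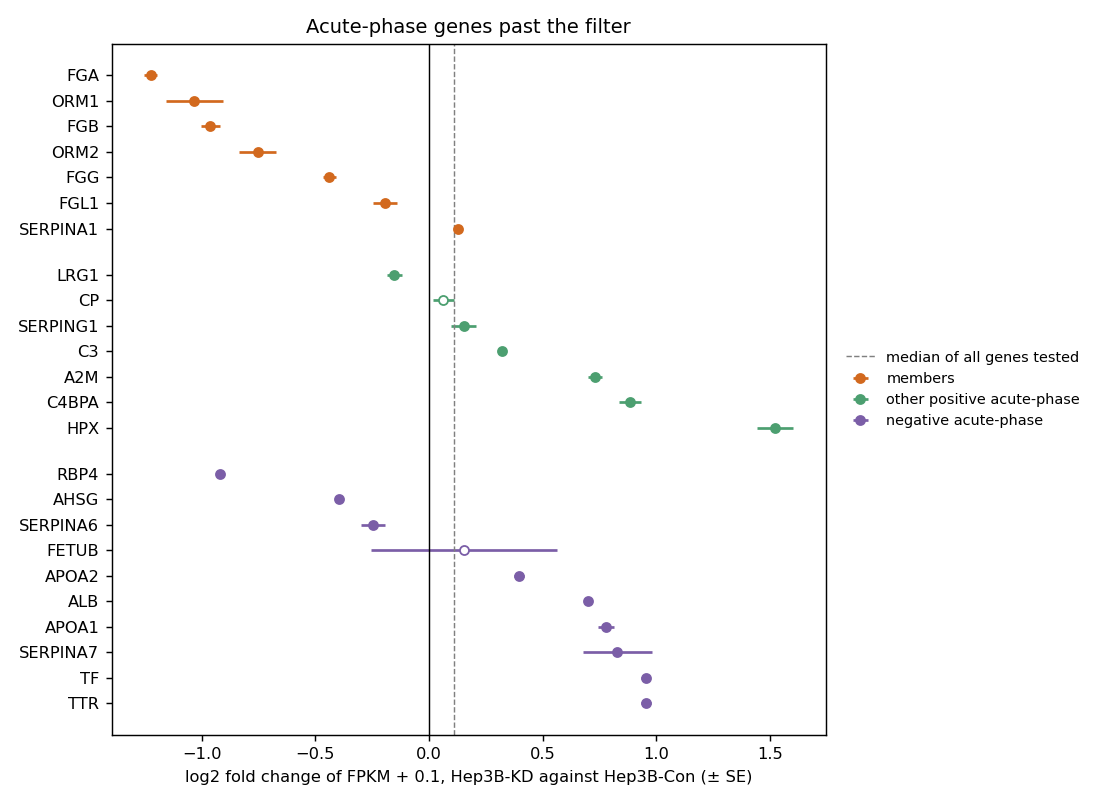
Log2 fold change of FPKM + 0.1 between Hep3B-KD and Hep3B-Con with its SE for the members (orange), other positive acute-phase genes (green) and negative acute-phase genes (purple) past the filter. Filled points passed an adjusted p under 0.05 and open points did not, the dashed line is the median of all genes tested, 0.11, and members extend from FGA at -1.23 to SERPINA1 at 0.13 while HPX reaches 1.52.

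In the IL6 pathway, which switches the fibrinogen genes on, IL6R, IL6ST and IL11RA were the receptor transcripts past the filter, and all 3 were higher in Hep3B-KD, while LIFR and OSMR were too low to test. Of 18 listed genes 12 were tested, and 9 rose and 3 fell, with a median log2 fold change of 0.31. IL6R, the ligand-binding receptor, went from 2.23 ± 0.166 to 5.11 ± 0.00791 FPKM, and the log2 fold change was 1.16 ± 0.0661 (SE, limma adjusted p = 1.38e-05). IL6ST went from 4.50 ± 0.236 to 9.52 ± 0.326 FPKM (log2 fold change 1.07). JAK1, the kinase bound to gp130, rose by 0.59 on the log2 scale. STAT3 rose by 0.14 (limma adjusted p = 0.00687), which became 0.04 after median centring (adjusted p = 0.319). LIF, a cytokine that also signals through gp130, fell from 6.49 ± 0.455 to 1.06 ± 0.132 FPKM (log2 fold change -2.51, limma adjusted p = 4.15e-06), and PTPN11, a phosphatase recruited to gp130, fell by 0.30. The other gene that fell was IL11, at a low level of 0.724 ± 0.188 and 0.331 ± 0.092 FPKM (log2 fold change -0.93, limma adjusted p = 0.0341). IL6 itself had 0 reads in 5 libraries and 3 in Hep3B-KD replicate 3. SOCS3, the feedback inhibitor that STAT3 induces, was below the filter, at 0.405 ± 0.0421 and 0.538 ± 0.181 FPKM.

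IL1 and NF-kB genes also moved in both directions. Of 18 listed genes 16 were tested, and 9 rose, 4 fell and 3 did not pass, with a median log2 fold change of 0.32. The receptor subunits IL1R1 and IL1RAP rose by 1.38 and 1.06 on the log2 scale, and the NF-kB inhibitors TNFAIP3 and NFKBIA by 1.49 and 0.51. NFKBIZ, a nuclear cofactor of NF-kB in the acute-phase response, rose by 0.62, from 16.5 ± 0.393 to 25.4 ± 0.349 FPKM. CXCL8, a chemokine gene, fell from 54.6 ± 0.860 to 10.1 ± 0.184 FPKM, and the log2 fold change was -2.42 ± 0.0264 (SE, limma adjusted p = 4.03e-08).

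All 14 listed liver transcription factors passed the filter. Of these, 6 rose, 5 fell and 3 did not pass, with a median log2 fold change of 0.02. CEBPA, the C/EBP factor of resting hepatocytes, fell from 33.1 ± 0.955 to 15.3 ± 0.706 FPKM, and the log2 fold change was -1.11 ± 0.0413 (SE, limma adjusted p = 2.66e-06). CEBPB, the C/EBP factor of the acute phase, fell by 0.46 (limma adjusted p = 0.00889). CEBPD, also induced in the acute phase, rose from 3.19 ± 1.34 to 7.04 ± 1.85 FPKM (log2 fold change 1.15, limma adjusted p = 0.0161), with a wide spread, and its adjusted p went above 0.05 with the replicate block and without any 1 of 4 libraries, Hep3B-Con replicate 2 or 3 or Hep3B-KD replicate 2 or 3 (0.0501 to 0.0525). HNF4A fell from 56.2 ± 0.262 to 43.9 ± 0.809 FPKM (log2 fold change -0.35). FOXA2 and FOXA3, pioneer factors of liver genes, rose by 0.54 and 0.47, and ONECUT1 and NR1H4, the bile acid receptor, rose by 1.20 and 1.24 on the log2 scale. What these changes have to do with the members was not tested.

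**Figure D4:**
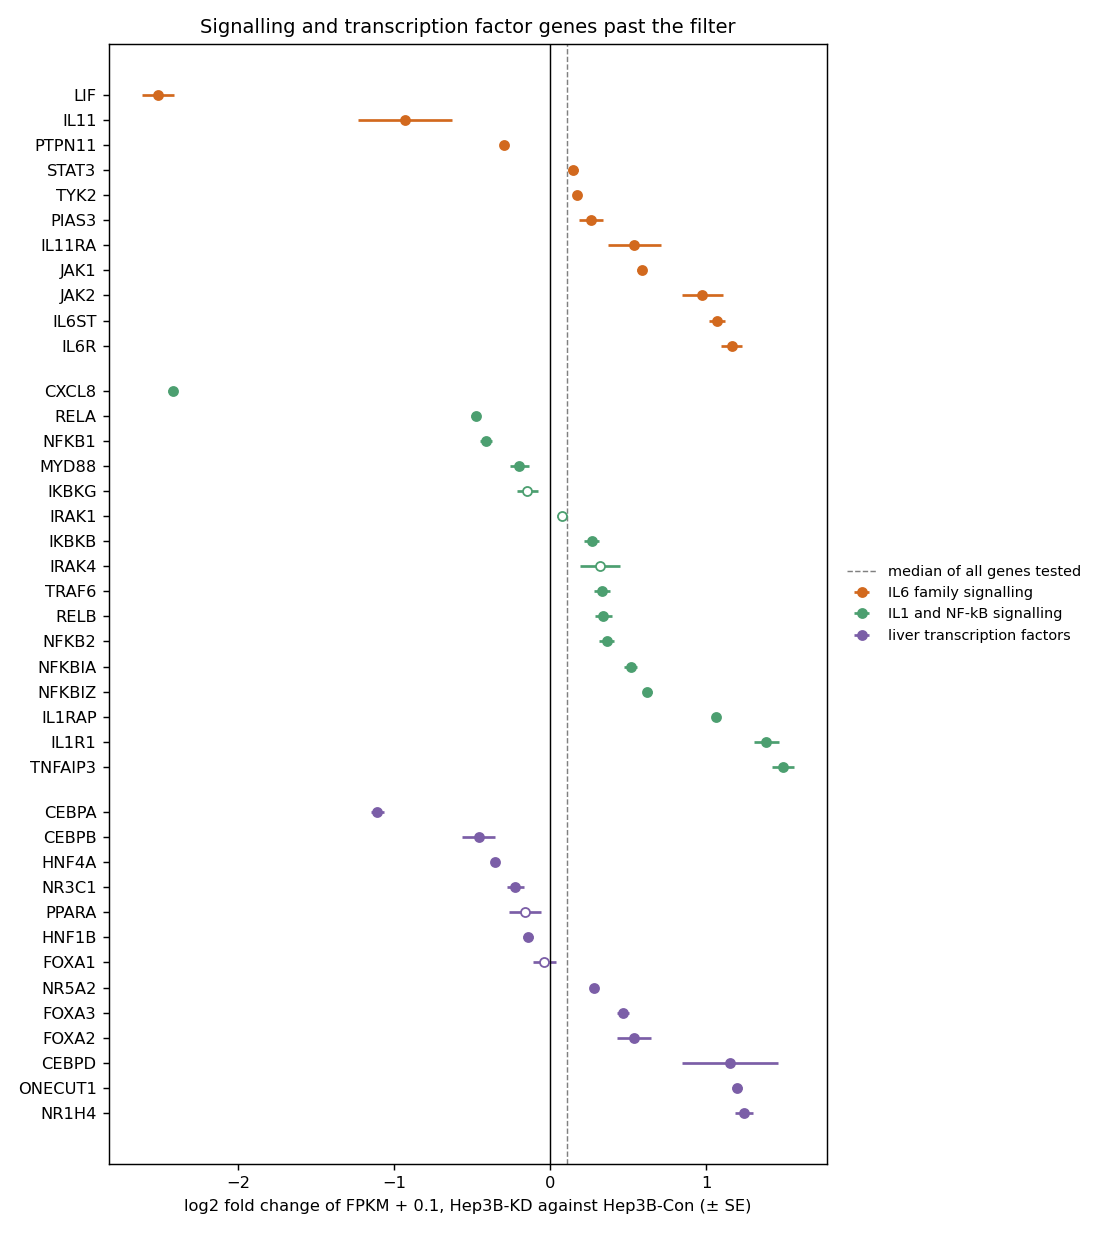
Log2 fold change of FPKM + 0.1 between Hep3B-KD and Hep3B-Con with its SE for the reported IL6 family signalling genes (orange), IL1 and NF-kB signalling genes (green) and liver transcription factors (purple) past the filter. Filled points passed an adjusted p under 0.05, open points did not, and the dashed line is the median of all genes tested, 0.11. LIF and CXCL8 are lowest at -2.51 and -2.42. Above 1 lie IL6R, IL6ST, IL1R1, IL1RAP, TNFAIP3, CEBPD, ONECUT1 and NR1H4.

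Genes beside the members did not share one direction. Of 18 annotated neighbours 15 were tested, and 9 rose, 2 fell and 4 did not pass, with a median log2 fold change of 0.25. PLRG1, a splicing factor gene 12.5 kb from FGB, was at 20.7 ± 0.959 and 22.6 ± 0.690 FPKM (log2 fold change 0.12, limma adjusted p = 0.0391), and the call was lost in 7 of 16 alternatives. COL27A1, a collagen gene 10.5 kb from ORM1, rose from 6.31 ± 0.255 to 19.9 ± 0.801 FPKM. AKNA, which lies 0.904 kb from ORM2 on the opposite strand and was picked out after its values were seen, fell from 2.84 ± 0.0892 to 1.44 ± 0.153 FPKM (log2 fold change -0.94, limma adjusted p = 0.000183). SERPINA5 and SERPINA4, in the cluster of SERPINA1, rose by 1.55 and 1.74 on the log2 scale. The other neighbour that fell was ASAH1, a lysosomal ceramidase gene 146 kb from FGL1, at 6.33 ± 0.194 and 5.75 ± 0.185 FPKM (log2 fold change -0.14, limma adjusted p = 0.0387). SERPINA6, the cortisol carrier gene 53.4 kb from SERPINA1, was counted with the negative acute-phase genes and not among these 18, and fell by 0.25 on the log2 scale.

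Profiles most like the mean of the 3 fibrinogen genes over the 6 libraries were sought among 12080 genes averaging 1 FPKM or more. The 5 closest were FAM129B, SKP2, WARS, SEMA3G and VKORC1L1, with root mean square differences of 0.0209, 0.0218, 0.0232, 0.0256 and 0.0263 on the log2 scale. Their log2 fold changes were -0.86, -0.89, -0.87, -0.87 and -0.86. With 2 groups, any gene with a fall of this size and a small spread comes out as close.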

How the data were processed

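RNA of 6 Hep3B libraries, 3 per group by the titles in the labels, was made into TruSeq libraries and read on an Illumina HiSeq. The submitters' processing notes name Bowtie2 2.0.6, TopHat2 2.0.12 and GRCh37, and the counter and annotation are not given in the sources used here. The authors deposited FPKM values, read here as they stand, in 1 table of 29908 Ensembl genes. Multiplied by GENCODE 29 exon length and library total, 100% of the values gave whole reads (tolerance 0.01), so reads per gene and depth (15861039 to 17572714) could be recovered. Reads that the authors could not assign to genes are not part of these totals. Gene positions are those of GENCODE 29 on GRCh38, since the table holds none.

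Genes averaging 0.5 FPKM or more over the libraries (14221) were tested as log2(FPKM + 0.1) with limma 3.58.1 (lmFit, eBayes with trend) in R 4.3.3, and p-values were adjusted by Benjamini-Hochberg across every gene tested. A gene was called at an adjusted p under 0.05, and also counted with a fold of at least 2. Chain ratios were compared by exact permutation in Python 3.11.15 with scipy 1.17.1. Alternatives were other filters, pseudocounts and scalings, eBayes without trend, a replicate block, each library left out, and, added after the data were seen, voom on the recovered reads. The fit was tested on simulated data.

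The 10 members and all gene lists were chosen with earlier results of these data known. Named were all members and DAGLA, from each list the 3 genes with the highest mean FPKM and the 3 largest changes among those called, a set of receptors, transcription factors and acute-phase genes always named, and the 5 genes closest to the fibrinogen profile. AKNA, ASAH1, SERPINA6, IL11, IL11RA, LIFR, OSMR, IL6, TXNL4B, COL3A1 and DCN were named after their values were seen. Others outside the rule stand only in figures. Some genes that this rule named are not reported here. Promoters came from a RefSeq table that held 6 of the 10 members.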

Additional observations from a re-analysis of the deposited data

How the results depend on the processing

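Of 112 values of the 7 tested members under 16 alternatives, 109 kept their direction and side of the threshold, and 3 lost the call, FGL1 after quantile normalization and without Hep3B-Con replicate 3, and SERPINA1 after median centring. Genes called with a fold of at least 2 numbered 1256, but 503 with a pseudocount of 1. Members called with such a fold numbered 2, but 1 after quantile normalization and 3 after median centring. With 1 library left out, members called ranged from 6 to 7, members with a fold of at least 2 from 1 to 2, genes called from 7788 to 7942 and genes with a fold of at least 2 from 1185 to 1293.

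Median centring took the middle of the fold changes from 0.11 to 0.00586 (log2), and scaling moved the split of calls. Higher and lower genes numbered 5133 and 3388, against 4064 and 4308 after median centring and 4270 and 3902 after quantile normalization, and with a fold of at least 2 they numbered 838 and 418, against 622 and 536 and 477 and 587. With a pseudocount of 1 the latter were 255 and 248. Direction reversed for genes near 0, none of them members. DHX38 gave -0.0106 after median centring, F2 gave 0.0833 and FOXA1 0.0505 after quantile normalization, and FOXA1 ranged from -0.0913 to 0.0227 with 1 library left out, above 0 without Hep3B-Con replicate 1 (0.0227) and without Hep3B-KD replicate 1 (0.0181). The causes were not tested.

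Same-numbered libraries did not deviate together (correlations of -0.0134, -0.0656 and -0.0011). No pairing by number was seen, although 3 libraries per group cannot exclude one. With the replicate number as a block, 7919 genes were called, 1247 of them with a fold of at least 2, and 7 and 2 members, so no member call changed. Voom on the recovered reads, chosen after seeing the data, called 8975 genes and the same number of members. Depth limits CRP, SAA1 and HP, which were tested only without the filter and did not pass.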

Other observations

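Genes that form or dissolve fibrin, the product of fibrinogen, were tested for 9 of 14 listed genes, and 6 rose, 2 fell and 1 did not pass, with a median log2 fold change of 0.47. SERPINF2, the plasmin inhibitor, rose from 33.4 ± 1.53 to 75.6 ± 2.67 FPKM (means ± SD, n = 3 per group, log2 fold change 1.18), and SERPIND1, a thrombin inhibitor known as heparin cofactor II, rose from 38.9 ± 1.27 to 61.4 ± 2.26 FPKM (log2 fold change 0.66). PLAU, the urokinase plasminogen activator, rose from 0.203 ± 0.0973 to 0.942 ± 0.152 FPKM (limma adjusted p = 0.00306), a low level in both groups. F2, the gene of prothrombin, was at 44.3 ± 0.754 and 43.3 ± 1.54 FPKM (limma adjusted p = 0.411), but it passed as lower after median centring (-0.14, adjusted p = 0.00962) and as higher after quantile normalization (0.08, adjusted p = 0.0335).

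Of 17 listed relatives with a fibrinogen domain, 2 were tested. MFAP4, a microfibril protein, fell from 4.90 ± 0.242 to 2.43 ± 0.148 FPKM (log2 fold change -0.98, limma adjusted p = 3.23e-05).

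Among the 8 hepatocyte markers 7 rose and 1, HNF4A, fell, while 36.1% of all genes tested rose. Several were counted above already, with SERPINA1 a member, ALB, TTR and TF negative acute-phase genes and HNF4A a liver transcription factor. The rise of SERPINA1 did not pass after median centring (limma adjusted p = 0.136). Of 3 leukocyte markers in the table the 2 tested, CD14 and LYZ, did not pass, although CD14 passed as lower without Hep3B-Con replicate 1 (adjusted p = 0.0473) and LYZ as higher without Hep3B-Con replicate 2 (adjusted p = 0.0318) and with voom (adjusted p = 0.037). The 3 had a summed level of 2.83 to 4.45 FPKM in Hep3B-Con and 3.98 to 4.79 FPKM in Hep3B-KD. The 4 endothelial markers summed to 0.230 to 0.265 and 0.322 to 0.439 FPKM. All 3 stellate and fibroblast markers tested, COL1A1, LUM and PDGFRB, fell.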
